A study of Mus musculus with 7 samples.

Results

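The genes described here are the subunits of the phagocyte NADPH oxidase, the enzyme with which phagocytes make superoxide, and the nitric oxide synthases. The 8 genes were taken by name from the array design: Cybb, Cyba, Ncf1, Ncf4, Rac2, Nos1, Nos2 and Nos3. They had 10 of the 39401 probes used, and they were 8 of the 23288 genes tested.

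Brain RNA came from male mice of the C57BL/6N background, and each of the 7 samples was hybridised to its own array. In 3 samples the mice lacked Pla2g2e (Pla2g2e -/-, here KO), and their brains were taken on day 3 after a stroke, a transient middle cerebral artery occlusion of 60 min. Another 3 samples came from wild type mice (WT) on day 3 after the same occlusion. The last was a WT sham sample, whose time is not given in its labels and whose treatment text repeats the occlusion. The knockout's deleted exons, the cells that lacked the gene and the brain region or side taken are not given in the sources used here. Nothing in the labels ties the replicates to separate animals, so the p-values measure only how far these samples spread, and that spread may be technical.

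In resting phagocytes the oxidase is kept apart in pieces. Cybb (gp91phox, also called Nox2) carries electrons across the membrane and sits there with its partner Cyba (p22phox), while cytosolic subunits such as p47phox and p40phox wait apart and join them with Rac2 when the cell is activated. The nitric oxide synthases make nitric oxide from arginine: Nos1 is the neuronal form, Nos2 the form induced in inflammation and Nos3 the endothelial form. In stroke, oxidants from these enzymes are studied as a source of injury, and nitric oxide from the endothelium as a regulator of blood flow.

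Levels are given as log2 of the processed signal minus the array's 75th percentile, so that 1 unit is a doubling. The sham array and 5 of the day 3 arrays resembled each other, and the array of WT replicate 1 stood apart. Over all genes tested, its 6 correlations with the other arrays were 0.857 to 0.916, against 0.968 to 0.991 for the 15 pairs without it. Each difference between KO and WT below is therefore given with and without it. Neuron markers were highest and most phagocyte markers lowest on that array. Sham lay inside the range of the other 5 day 3 arrays for 9 of 10 general phagocyte markers. It was above them for 5 of 8 neuron markers, and below them for 7 of 8 neutrophil and 9 of 9 endothelial markers. Whether the labels of WT replicate 1 and sham were exchanged was not tested, and every value is given under its label as deposited. The brighter probe of Pla2g2e, the targeted gene, read -4.44, -5.83 and -4.97 in KO samples, against -6.89, -3.68 and -3.36 in WT samples and -4.69 in sham. All KO arrays were below WT replicates 2 and 3, as in 5.33% of all genes tested. The KO and WT day 3 groups thus overlapped through WT replicate 1 alone, while sham lay inside the KO range. The dimmer probe was not well above background in any KO sample (-7.94, -8.44 and -7.84) or in WT replicate 1, the lowest array, and it was well above background in WT replicates 2 and 3 (-6.72 and -6.50) and in sham (-6.83). The sources used here do not say whether either probe lies in the deleted part. The KO arrays were on 1 slide and the WT and sham arrays on another, which means that genotype and slide cannot be told apart.

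Some of the sequences behind these values are shown first. Cyba and Nos3 had a second probe, and Nos1 was read by a single dim probe. The 60 bases of those 3 probes are shown, since the agreement between probes and the reading of Nos1 rest on them. The Nos3 probe lay at chr5:23889636-23889695 and the Nos1 probe at chr5:118402831-118402890, both on the plus strand of mm9. The Cyba probe is listed without a position in the array design.
Cyba, second probe: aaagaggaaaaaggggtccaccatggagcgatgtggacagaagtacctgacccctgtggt
Nos1: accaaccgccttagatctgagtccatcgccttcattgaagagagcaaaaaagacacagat
Nos3, second probe: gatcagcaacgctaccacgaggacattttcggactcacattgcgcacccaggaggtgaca

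RefSeq's promoter table (GRCm38.p6) covered 4 of the 8 genes, namely Nos1 and the oxidase genes Cybb, Cyba and Ncf1, which were all lowest in WT replicate 1 and are shown for that reason. The 250 bases before the start of each oxidase gene are printed 5′ to 3′ on the gene's own strand, which is the minus strand for all of them. The windows are chrX:9469325-9469574 for Cybb, chr8:122432941-122433190 for Cyba and chr5:134229626-134229875 for Ncf1. Capitals mark, on either strand, a GAAA repeated after 2 bases of any kind, the letters of an interferon-stimulated element, which interferon regulatory factors bind.
Cybb: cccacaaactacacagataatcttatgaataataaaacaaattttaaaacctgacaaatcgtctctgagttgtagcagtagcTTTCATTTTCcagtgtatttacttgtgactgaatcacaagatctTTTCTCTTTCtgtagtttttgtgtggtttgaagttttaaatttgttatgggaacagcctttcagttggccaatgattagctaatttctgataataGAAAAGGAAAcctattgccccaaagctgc
Cyba: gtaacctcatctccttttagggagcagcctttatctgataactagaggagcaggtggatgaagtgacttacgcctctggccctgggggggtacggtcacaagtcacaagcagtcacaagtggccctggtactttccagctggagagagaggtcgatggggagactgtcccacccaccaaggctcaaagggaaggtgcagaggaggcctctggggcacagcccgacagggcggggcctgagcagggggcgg
Ncf1: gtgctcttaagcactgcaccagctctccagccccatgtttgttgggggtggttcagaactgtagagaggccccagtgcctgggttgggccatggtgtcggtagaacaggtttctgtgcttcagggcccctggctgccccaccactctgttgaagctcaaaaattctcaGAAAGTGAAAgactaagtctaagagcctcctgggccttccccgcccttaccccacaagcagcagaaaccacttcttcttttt

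Those letters occurred 3 times before Cybb, 1 time before Ncf1 and 0 times before Cyba and Nos1. Of 32851 promoters of the same length, 2.98% held them at least once. Those 32851, which leave out a chromosome, are called all promoters below. The PU.1 core GAGGAA was found 1 time, before Nos1, and in 23.25% of all promoters. TTCNNNGAA, the letters of a STAT site, occurred 1 time, before Ncf1, where it overlaps the marked element, and in 7.02% of all promoters. A kappaB consensus occurred 1 time, before Nos1, and in 3.90% of all. TATAAA and ACGTG, searched as a TATA box and a hypoxia element core, occurred in none of the 4 and in 12.4% and 16.6% of all promoters. All were searched on both strands, and a match of letters is a description of the window only.

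All 10 probes were well above background on all 7 arrays. WT replicate 1 was below each of the other 6 arrays in 7 of the 8 genes, and in 34.4% of all genes tested. It was at least 4-fold below the median of the other 6 in the same 7 genes, and in 9.61% of all genes tested. The gene that differed was Nos1, which was highest there, as were 43.9% of all genes tested. In bulk brain tissue fewer cells of a type and less RNA per cell cannot be told apart.

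**Figure D1:**
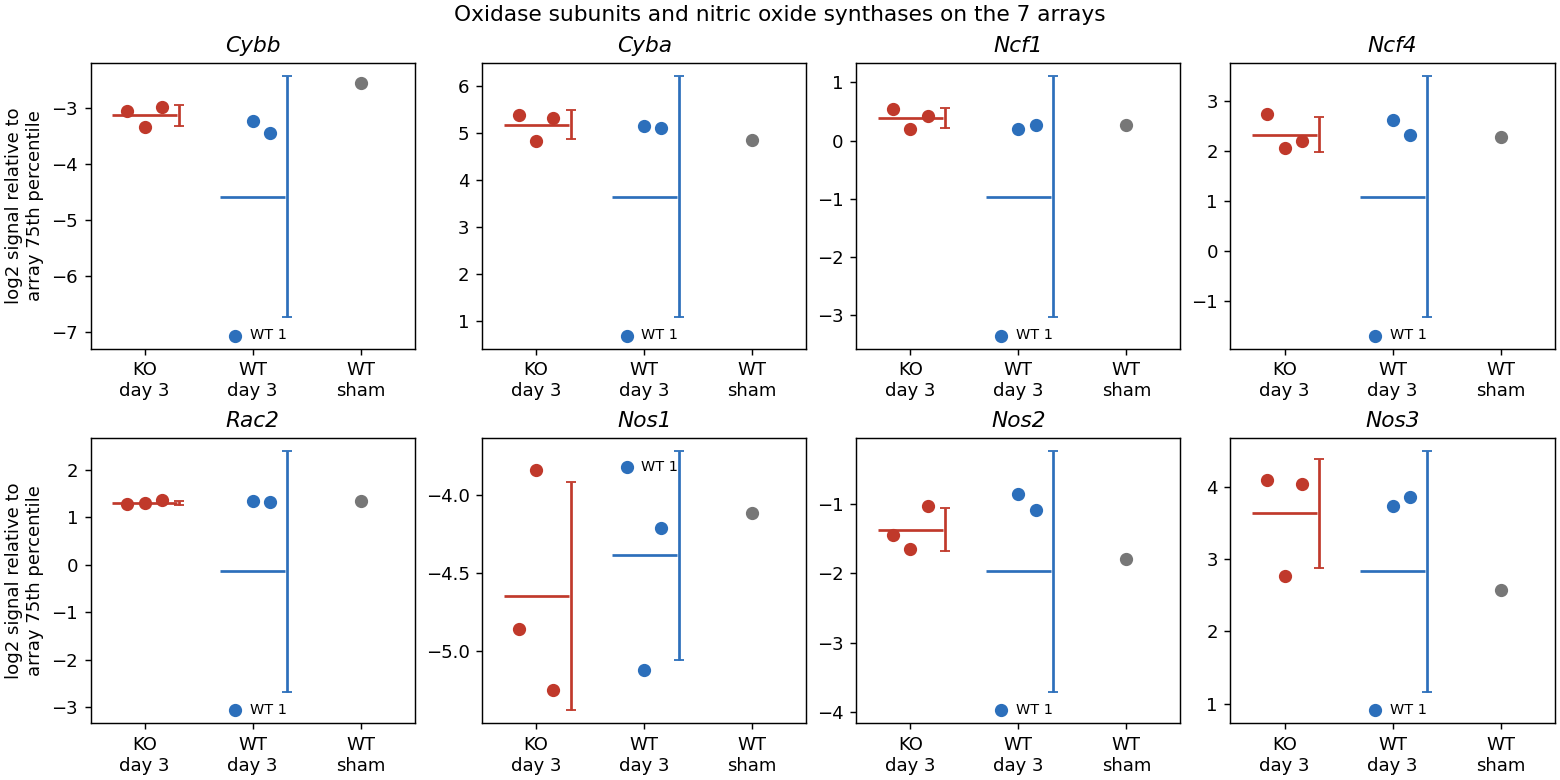
Level of each gene by array, as log2 signal relative to the array's 75th percentile (vertical axis, scaled separately in each panel), for KO day 3 (n = 3), WT day 3 (n = 3) and WT sham (n = 1). Points are arrays, horizontal lines are group means and bars are the mean ± SD. WT replicate 1, named in each panel, lies below every other array in 7 panels and is highest for Nos1.

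Cybb, the catalytic subunit, read -3.06, -3.34 and -2.98 in KO samples, against -7.06, -3.23 and -3.44 in WT samples and -2.54 in sham. WT replicate 1 was 12.3-fold below the lowest of the others, sham was the highest array, and the KO and WT ranges overlapped. Its probe was dim, with a processed signal of 13.1 to 319 and a scanner error of up to 15.8%, the largest among the 10 probes.

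Cyba, which stabilises Cybb in the membrane, read 5.38, 4.82 and 5.31 in KO samples, against 0.68, 5.15 and 5.09 in WT samples and 4.84 in sham. In WT replicate 1 it was 17.6-fold below the lowest of the others, which spanned 1.47-fold. The second probe, printed above, read 2.38, 1.70 and 2.38 in KO samples, against -2.22, 2.19 and 2.05 in WT samples and 1.77 in sham. By both probes WT replicate 1 was lowest, and KO replicate 2 and sham were the next lowest.

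Ncf1 (p47phox), the organiser that carries the cytosolic complex to the membrane, read 0.55, 0.20 and 0.41 in KO samples, against -3.35, 0.21 and 0.26 in WT samples and 0.27 in sham. All arrays but WT replicate 1 lay within 1.27-fold, and that array was 11.7-fold below the lowest of them. Ncf4 (p40phox), which binds a membrane lipid and supports the active complex, read 2.73, 2.05 and 2.21 in KO samples, against -1.68, 2.63 and 2.33 in WT samples and 2.29 in sham. The 6 arrays other than WT replicate 1 spanned 1.60-fold, and that array was 13.3-fold below the lowest of them.

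Rac2, the small GTPase of blood cells that switches the complex on, read 1.28, 1.29 and 1.36 in KO samples, against -3.06, 1.35 and 1.32 in WT samples and 1.34 in sham. Apart from WT replicate 1, which was 20.2-fold below the lowest of the others, the 6 arrays agreed within 1.06-fold, and the sham array was inside the range of the day 3 arrays. Only 0.0988% of genes tested had a smaller range over those 6 arrays, where the median gene spanned 0.65 log2 and Rac2 spanned 0.08. The probe was spotted 10 times on each array, and the SE of an array's mean over those spots was 0.0084 to 0.018 log2. The SD over the 6 arrays was 0.032.

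Nos1, made by a small set of neurons, read -4.86, -3.84 and -5.25 in KO samples, against -3.82, -5.12 and -4.21 in WT samples and -4.12 in sham. KO replicate 2 and WT replicate 1 were the high arrays, KO replicate 3 and WT replicate 2 the low ones, and the groups overlapped. The 6 arrays other than WT replicate 1 spanned 2.66-fold. Processed signals were 36.8 to 124, with a scanner error of up to 11.47%.

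Nos2, which phagocytes and other cells make after inflammatory signals, read -1.44, -1.65 and -1.04 in KO samples, against -3.97, -0.86 and -1.09 in WT samples and -1.80 in sham. In WT replicate 1 it was 4.50-fold below the lowest of the others, a smaller gap than for any oxidase subunit. Sham was next lowest, below the other 5 day 3 arrays.

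Nos3, the enzyme of the vessel lining, read 4.11, 2.77 and 4.05 in KO samples, against 0.91, 3.75 and 3.86 in WT samples and 2.57 in sham. Besides WT replicate 1, sham and KO replicate 2 stood below the remaining 4 arrays. Its second probe gave 1.62, 0.13 and 1.51 in KO samples, against -1.68, 1.05 and 1.19 in WT samples and -0.12 in sham, which is the same division of the arrays. That probe also had 10 spots per array, with an SE of 0.011 to 0.022 log2 for their mean, and its 6 arrays other than WT replicate 1 spanned 1.75 log2 with an SD of 0.73.

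The comparison of KO with WT on day 3 asks whether loss of Pla2g2e changes these genes in the brain after stroke. By limma, 0 of the 8 genes passed an adjusted p of 0.05, as did 0% of all genes tested, where 196 had an unadjusted p under that value (0.842%) and the smallest adjusted p was 0.141. KO and WT arrays overlapped in all 8, while 4.53% of all genes tested had all KO arrays above or all below the WT arrays. They also overlapped in all 8 when WT replicates 2 and 3 alone were set against KO, where all KO arrays were above in 6.31% and below in 5.33% of all genes tested.

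The oxidase genes averaged higher in KO samples, with a single WT array far below the rest, and each of the 5 differences had a 95% interval that included 0. Cybb averaged -3.13 ± 0.19 in KO samples and -4.58 ± 2.15 in WT samples (SD, n = 3 each), a difference of 1.45 ± 1.06 log2 (SE; limma adjusted p = 0.862). Rac2 averaged 1.31 ± 0.04 in KO samples and -0.13 ± 2.53 in WT samples, a difference of 1.44 ± 1.24 (adjusted p = 0.862). For Cyba, Ncf4 and Ncf1 the differences were 1.53 ± 1.26, 1.24 ± 1.19 and 1.35 ± 1.02 (adjusted p = 0.862 each). The median over the 5 oxidase genes was 1.44, against -0.03 over all genes tested.

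Without WT replicate 1 the differences of the oxidase genes were near 0 and their intervals much narrower. Rac2 then differed by -0.02 (95% interval -0.33 to 0.29), Cyba by 0.05 (-0.51 to 0.61), Ncf1 by 0.15 (-0.25 to 0.56), Cybb by 0.21 (-0.24 to 0.66) and Ncf4 by -0.15 (-0.82 to 0.52). The limma adjusted p was 1.00 for each, and 0 of the 8 genes and 0% of all genes tested passed, with 1.63% of all genes at an unadjusted p under 0.05.

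Differences of the nitric oxide synthases were smaller, and their 95% intervals also included 0. Nos3 averaged 3.64 ± 0.76 in KO samples and 2.84 ± 1.67 in WT samples, a difference of 0.81 ± 0.90, and its second probe differed by 0.90 ± 0.89, or by -0.03 ± 0.50 without WT replicate 1. For Nos2 the difference was 0.60 ± 0.87 and for Nos1 -0.26 ± 0.51 (limma adjusted p = 0.862 for Nos2 and Nos3 and 0.873 for Nos1). Without WT replicate 1 Nos2 differed by -0.40 (95% interval -0.997 to 0.19), Nos3 by -0.16 (-1.37 to 1.05) and Nos1 by 0.02 (-1.34 to 1.38). All 3 differences had the opposite sign from those with that array.

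**Figure D2:**
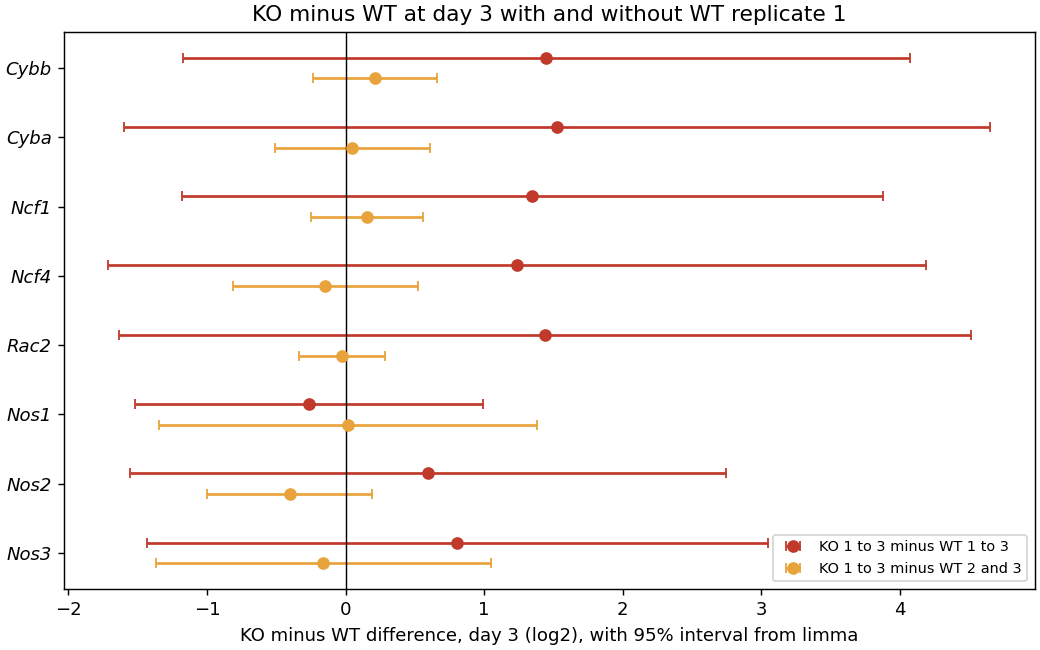
Difference between KO and WT on day 3 for each gene (horizontal axis, log2, KO minus WT), with 95% intervals from limma, for all arrays (red) and without WT replicate 1 (orange). Every interval includes 0. The oxidase genes lie between 1.24 and 1.53 with all arrays and between -0.15 and 0.21 without that array.

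The comparison of day 3 with sham rests on a single sham array, which the model assumes to vary like the day 3 arrays. The spread is taken over all day 3 arrays, so WT replicate 1 also widens the SE of KO minus sham. For Cybb that SE was 0.22 log2 with WT replicate 1 left out of the fit. None of the 8 genes passed in WT day 3 minus sham, where 0.0129% of all genes tested did, nor in KO day 3 minus sham, also with 0.0129% (limma; 1.12% and 1.31% of all genes at an unadjusted p under 0.05). Both comparisons use the same sham array. Sham lay inside the range of the 5 day 3 arrays other than WT replicate 1 for Cyba, Ncf1, Ncf4, Rac2 and Nos1. It was above them for Cybb and below them for Nos2 and Nos3, while it was above them in 21.8% and below them in 24.9% of all genes tested.

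Cybb differed from sham by -0.58 ± 1.496 log2 in KO samples and by -2.03 ± 1.496 in WT samples, and by -0.79 ± 0.23 in the WT samples without replicate 1 (limma adjusted p = 1.00, 1.00 and 0.768). Nos3 differed from sham by 1.07 ± 1.28 in KO samples and by 0.26 ± 1.28 in WT samples, and by 1.23 ± 0.62 in WT replicates 2 and 3 (adjusted p = 1.00, 1.00 and 0.768). For Nos2 the differences were 0.42 ± 1.23, -0.17 ± 1.23 and 0.82 ± 0.31 in the same order (adjusted p = 1.00, 1.00 and 0.768). Rac2 differed by -0.04 ± 1.75 in KO samples and by -1.48 ± 1.75 in WT samples, and by -0.01 ± 0.16 without replicate 1 (adjusted p = 1.00, 1.00 and 0.979). Without WT replicate 1, 0 of the 8 genes and 0.0258% of all genes tested passed in WT day 3 minus sham.

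Markers of the cells that make these enzymes also set WT replicate 1 apart, and their part in the results was not tested. WT replicate 1 minus the median of the other arrays was -1.09 log2 for the median of 8 microglia markers, -2.46 for that of 10 general phagocyte markers, -4.29 for that of 8 neutrophil markers and -5.14 for that of 8 monocyte and macrophage markers. On that array the oxidase subunits, at -4.39 for their median, lay nearest to the neutrophil list. Over all 7 arrays, each subunit minus the list median ranged less beside the monocyte and macrophage list than beside the neutrophil list. The ranges were 1.01 against 2.28 log2 for Cyba, 1.30 against 2.38 for Ncf4 and 1.37 against 2.89 for Rac2. For Cybb and Ncf1 they were 1.71 against 3.33 and 1.81 against 2.55. On the 6 arrays other than WT replicate 1 the oxidase genes did not follow these lists alike: Rac2 spanned 0.08 log2 there, while the neutrophil median ran from -3.82 to -0.99. Cybb had the same place as the microglia, neutrophil, monocyte and general phagocyte medians on 1 or 2 of those 6 arrays. Sham, where Cybb was highest, was the lowest of them for the monocyte and neutrophil medians. It was the highest for the general phagocyte median (3.77). For the microglia median sham (1.44) came next below KO replicate 2 (1.58). WT replicate 1 was lowest for 8 of 8 monocyte and macrophage markers, for 9 of 10 general phagocyte markers, with Itgam highest there, for 6 of 8 microglia markers and for 5 of 8 neutrophil markers. Lyz2, the lysozyme of myeloid cells, read 2.81, 2.38 and 2.11 in KO samples, against -3.68, 2.63 and 1.90 in WT samples and 2.43 in sham. Csf1r, the growth factor receptor of microglia and macrophages, was less far apart, at 5.39, 5.49 and 5.38 in KO samples, against 4.06, 5.33 and 5.17 in WT samples and 5.34 in sham.

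Levels were also summed over each list, in log2. The general phagocyte list summed to 7.28 to 7.58 in KO samples, against 5.58 to 7.46 in WT samples and 7.38 in sham. The monocyte and macrophage list gave 5.31 to 6.45 in KO samples, against 3.59 to 6.31 in WT samples and 5.40 in sham. The neutrophil list gave 3.76 to 4.94 in KO samples, against -1.01 to 4.98 in WT samples and 2.22 in sham. Neutrophil markers were below the 5 day 3 arrays in sham in 7 of 8 cases, whereas the oxidase subunits were below them in 0 of 5.

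Set against the markers' median on the same array, all 5 oxidase subunits were still lowest in WT replicate 1 beside general phagocyte markers. Cyba minus that median was 2.03, 1.31 and 1.92 in KO samples, against -0.31, 1.52 and 1.81 in WT samples and 1.07 in sham. Beside the monocyte and macrophage markers the order was turned: Cyba minus their median was 2.90, 3.12 and 3.37 in KO samples, against 3.91, 3.04 and 3.21 in WT samples and 3.50 in sham. All 5 oxidase subunits were highest in WT replicate 1 beside the monocyte and macrophage list, among them Rac2 at 0.17 and Ncf4 at 1.54. For Cybb the value there, -3.83, was not resolved from that of sham, -3.88, given the scanner error of its dim probe.

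Nos3 followed the endothelial markers closely. All 9 endothelial markers were lowest in WT replicate 1, and in sham all 9 were below the other 5 day 3 arrays. Cdh5, the cadherin of endothelial junctions, read 2.35, 1.39 and 2.30 in KO samples, against -1.69, 2.21 and 2.14 in WT samples and 1.15 in sham. Nos3 minus the median of the endothelial markers was 1.74, 1.30 and 1.75 in KO samples, against 1.17, 1.54 and 1.72 in WT samples and 1.20 in sham. This difference ranged over 0.59 log2, while Nos3 itself ranged over 3.20. Among the oxidase subunits, Cyba had the same place as the endothelial median on 5 of the 7 arrays, as Nos3 did. Cyba minus that median ranged over 2.52 log2.

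Nos2 also varied less beside the endothelial markers than beside the phagocyte markers. Nos2 minus the endothelial median ranged over 0.74 log2 across the 7 arrays, and minus the pericyte and smooth muscle median over 1.06. Minus the general phagocyte median it ranged over 1.20 and minus the monocyte and macrophage median over 3.19, while Nos2 itself ranged over 3.11. The endothelial list summed to 6.61 to 7.77 in KO samples, against 4.48 to 7.52 in WT samples and 6.33 in sham.

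Nos1 read in the same order over the 7 arrays as the median of 8 inhibitory interneuron markers, although not every step of that order was resolved. From low to high, both had KO replicate 3, WT replicate 2, KO replicate 1, WT replicate 3, sham, KO replicate 2 and WT replicate 1. In 3 of the 6 steps the Nos1 signals were less than 10% apart, under the scanner error of that dim probe, and the top pair was 1.01-fold apart. With the general neuron markers 4 of the 7 arrays had the same place. The interneuron markers were further apart than Nos1 was: their median was 0.35, 1.61 and -1.06 in KO samples, against 3.06, -0.30 and 0.71 in WT samples and 1.34 in sham. WT replicate 1 was highest for 8 of 8 interneuron and 8 of 8 neuron markers, among them Sst, a peptide of interneurons, at 3.57 against -0.65 to 2.02 on the other arrays. This order is a description of 7 arrays, and the orders of all 8 genes were set beside 12 marker lists.

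**Figure D3:**
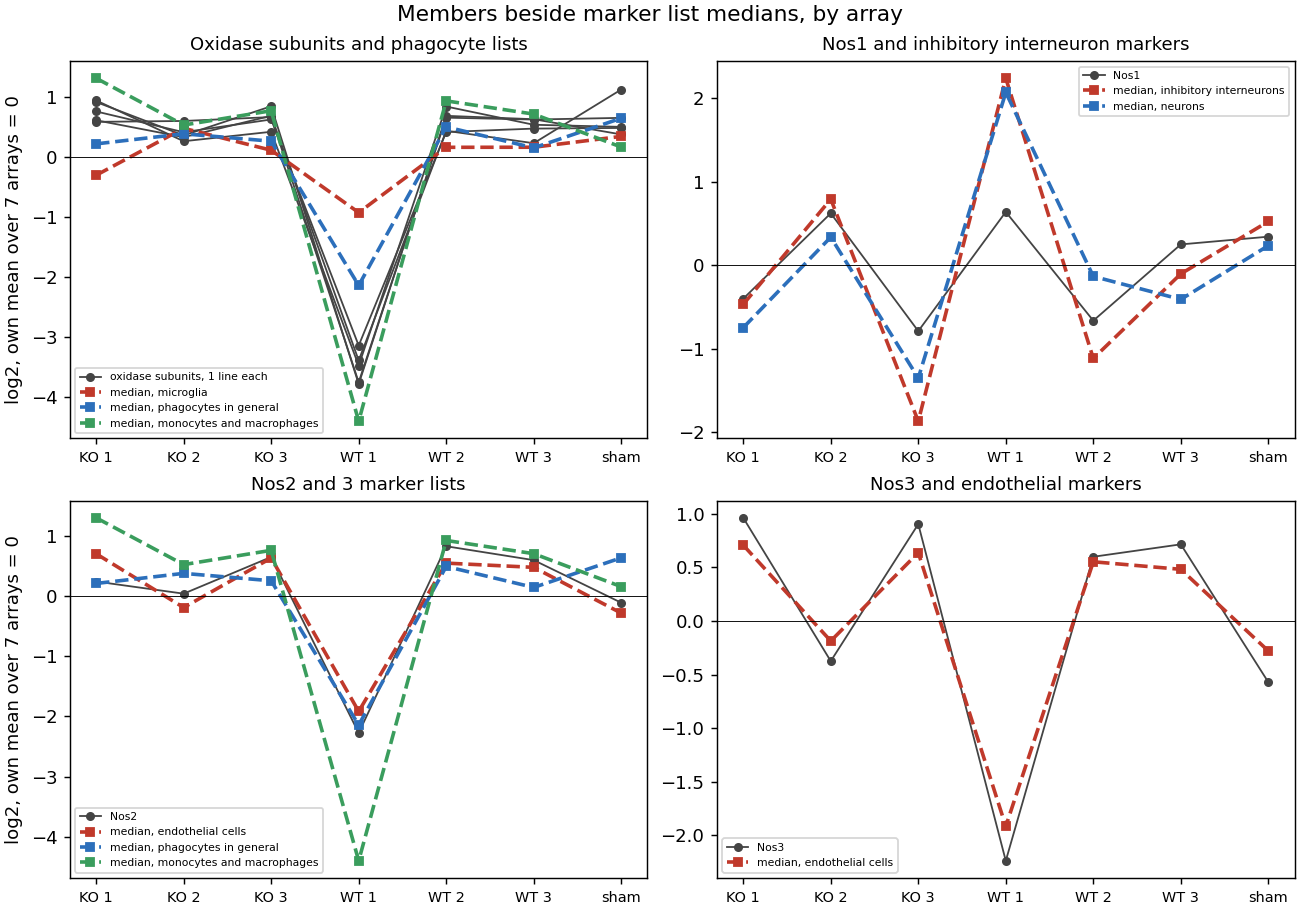
Levels of the genes (solid, grey) and medians of marker lists (dashed) on each of the 7 arrays, in log2, each centred on its own mean over the arrays. The 5 oxidase subunits fall in WT replicate 1 between the general phagocyte and the monocyte lists, Nos1 and the interneuron list run from low to high over the same arrays, with some neighbours too close to order, and Nos3 lies close to the endothelial list on every array.

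The nearest genes to a member were taken as those with the smallest root mean square difference between centred profiles, among all genes tested. Over 7 arrays the nearest to Nos3 were Slc52a3 (0.0539 log2), Tusc5 (0.0654) and Lama5 (0.0736), a laminin chain of the vascular basement membrane. Over 6 arrays, without WT replicate 1, they were Lama5 (0.0446), S1pr4 (0.0533) and Fzd4 (0.0556), so Lama5 was near in both. The nearest to Nos2 were Erich4 (0.122), Efna1 (0.124) and Fkbp10 (0.134) over 7 arrays, and Cish (0.0487), Sox7 (0.0805) and Scarb1 (0.0881) over 6. Nos1 had Chl1 (0.168), Eno4 (0.175) and Dynlrb2 (0.187) over 7 arrays, and Mpped2 (0.0889), Mybph (0.103) and Impact (0.112) over 6. Cybb was less closely matched over 7 arrays, by Mcm3 (0.226), Igf1 (0.240) and Naip6 (0.241), and over 6 by Ripply1 (0.1005), Bpifb1 (0.103) and Chrna7 (0.108). No gene was shared between the 7 and 6 array lists of Cybb, Nos1 or Nos2.

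Among the members themselves, all 5 oxidase genes were alike with WT replicate 1, and some of them without it. Over the 6 other arrays Pearson's r between 2 members ran from -0.843, for Cyba and Nos1, to 0.949, for Cyba and Nos3, over 28 pairs that share all their arrays. There Cyba had r = 0.776 with Ncf1 and 0.632 with Ncf4, and Ncf1 had 0.460 with Ncf4. Cybb had r = -0.12 with Cyba and 0.264 with Ncf1, and Rac2, which hardly varied there, had -0.04 with Cyba and -0.31 with Ncf1.

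Other genes of the same pathways were followed as lists. None of their members passed in any of the comparisons. For the counts by list below, WT replicate 1 was lowest for 34.4% and highest for 43.9% of all genes tested. For 15 partners and regulators of the oxidase, 12 were higher and 3 lower in KO samples (median difference 0.56), and WT replicate 1 was lowest for 11 and highest for 2. Without that array the median was -0.13, with 3 higher and 12 lower, against 0.00 over all genes tested. Vav1, the exchange factor that activates Rac in blood cells, read 3.46, 3.17 and 3.53 in KO samples, against -0.72, 3.52 and 3.41 in WT samples and 3.25 in sham, a difference of 1.32 ± 1.19 between KO and WT (limma adjusted p = 0.862). Prkcd, a kinase that phosphorylates p47phox, differed by 0.75 ± 0.65, and Pak1, a kinase bound by Rac that neurons also make, by -0.85 ± 0.70 (adjusted p = 0.862 each). These differences were, without WT replicate 1, -0.08 ± 0.16 for Vav1, 0.02 ± 0.19 for Prkcd and -0.09 ± 0.33 for Pak1.

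Regulators of transcription of the oxidase and of Nos2 were also mostly lowest in WT replicate 1. Of 12, WT replicate 1 was lowest for 11 and highest for 1, and 11 were higher in KO samples (median difference 0.78). Without that array 4 were higher and 8 lower (median -0.04). Spi1 (PU.1), the factor of the myeloid lineage, read -2.43, -2.81 and -2.38 in KO samples, against -6.06, -2.49 and -2.57 in WT samples and -2.75 in sham. Irf8, another factor of myeloid cells, differed between KO and WT by 1.06 ± 0.87, and Nfkb1 by 0.77 ± 0.67 (limma adjusted p = 0.862 each). The values without WT replicate 1 were 0.06 ± 0.20 for Irf8 and 0.01 ± 0.23 for Nfkb1.

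Other NADPH oxidases were mixed. Of 10 genes 6 were tested, and Nox3, Duox1, Duox2 and Duoxa2 did not pass the filter on dim probes. WT replicate 1 was lowest for 2 of the 6 and highest for 2, against 34.4% and 43.9% of all genes tested. The median difference between KO and WT was -0.02 (without that array -0.01). Nox4, the oxidase of vessels and other tissues that works without the cytosolic subunits, was among the low ones: it read -3.47, -3.04 and -2.98 in KO samples, against -5.77, -2.96 and -3.06 in WT samples and -3.13 in sham. Noxa1 and Duoxa1, accessory factors of other oxidases, differed by 0.22 ± 0.25 and -0.18 ± 0.33 (limma adjusted p = 0.862 and 0.869). Without WT replicate 1 Noxa1 differed by 0.21 ± 0.26 and Duoxa1 by -0.41 ± 0.28 (adjusted p = 1.00 each), and for Duoxa1 all KO arrays were then below the WT arrays, as in 5.33% of all genes tested.

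Of 14 genes that supply arginine and tetrahydrobiopterin, the substrate and a cofactor of the synthases, WT replicate 1 was lowest for 8 and highest for 1 (median difference between KO and WT 0.19; without that array 0.06). Slc7a2, an arginine transporter, read -2.99, -3.55 and -2.63 in KO samples, against -5.09, -3.85 and -3.28 in WT samples and -3.96 in sham. Its KO and WT ranges overlapped in one array of each group, and its difference of 1.02 ± 0.53 was not called (limma adjusted p = 0.862). Spr, an enzyme of tetrahydrobiopterin synthesis, differed by 0.39 ± 0.30 (adjusted p = 0.862). Slc7a2 differed by 0.51 ± 0.34 and Spr by 0.099 ± 0.13 when WT replicate 1 was left out. Arg1, which competes for arginine and marks a macrophage state in mice, was looked at after its values were seen: it read 3.85, 2.08 and 2.58 in KO samples, against 2.89 and 2.73 in WT replicates 2 and 3 and 1.11 in sham, and was not well above background in WT replicate 1.

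Partners of the synthases were divided much as all genes tested were. Of 10, WT replicate 1 was lowest for 3 and highest for 4, near the shares over all genes of 34.4% and 43.9%. The median difference between KO and WT was 0.05 (without that array 0.03). Cav1 and Nostrin, which bind Nos3 in endothelial cells, differed by 0.84 ± 0.74 and 0.87 ± 0.79, and Hsp90aa1, a chaperone, by -0.28 ± 0.23 (limma adjusted p = 0.862 each). With WT replicate 1 left out, Cav1 and Nostrin differed by 0.0085 ± 0.27 and 0.0086 ± 0.36, and Hsp90aa1 by -0.10 ± 0.16. Nostrin read -1.40, -2.40 and -1.40 in KO samples, against -4.33, -1.76 and -1.73 in WT samples and -2.91 in sham, so that KO replicate 2 and sham stood below the remaining 4 arrays as they did for Nos3.

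The receptors of nitric oxide and the cyclic GMP genes went the other way in WT replicate 1. Of 10, that array was highest for 7 and lowest for 2, and 8 were lower in KO samples (median difference -0.29; without that array -0.02, with 5 higher and 5 lower). The array design's Gucy1a3 and Gucy1b3 are the subunits of the main soluble guanylate cyclase. Gucy1b3 read 0.24, 1.02 and 0.47 in KO samples, against 3.29, 0.56 and 0.44 in WT samples and 0.88 in sham. Gucy1a3 differed between KO and WT by -1.02 ± 0.87 and Gucy1a2, another alpha subunit, by -0.86 ± 0.62 (limma adjusted p = 0.862 each). Gucy1a3 differed by -0.07 ± 0.41 and Gucy1a2 by -0.16 ± 0.18 without WT replicate 1.

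**Figure D4:**
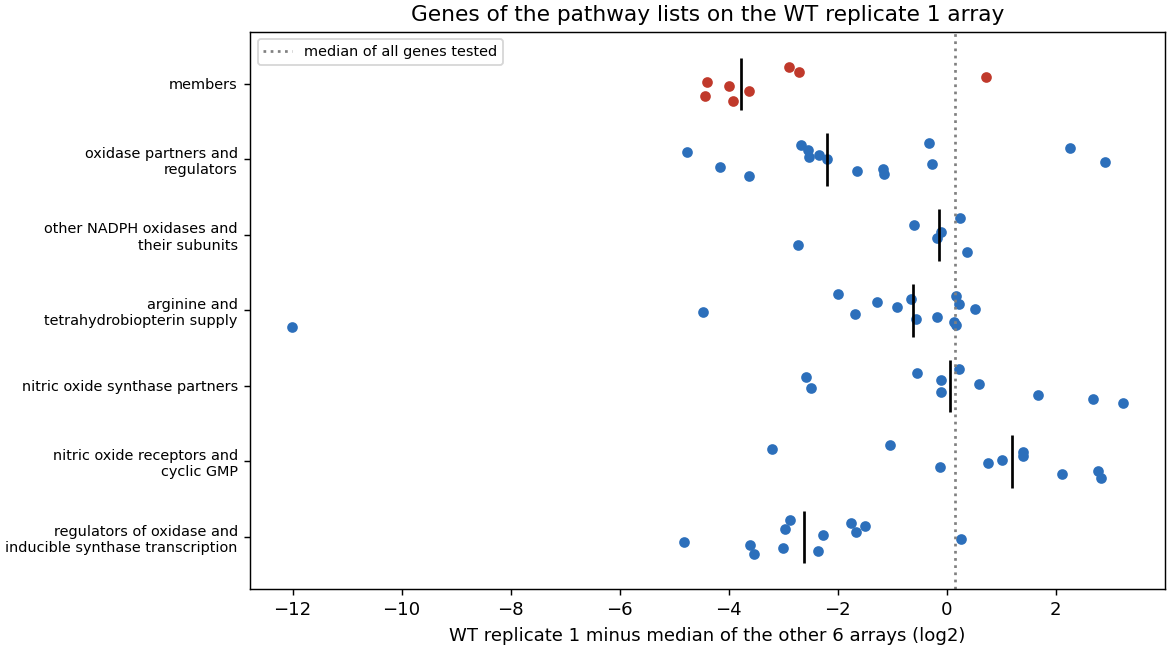
Level in WT replicate 1 minus the median of the other 6 arrays (horizontal axis, log2) for each tested gene of the pathway lists. Points are genes, black ticks are list medians, and the dotted line is the median of all genes tested (0.15). The members' median was -3.76, the transcription regulators' -2.62 and the nitric oxide receptors' 1.21. The point at -12.0 is Arg1, which was not well above background in WT replicate 1.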

How the data were processed

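The authors hybridised 7 RNA samples to 1-colour Agilent arrays, labelled with Cy3 after amplification, per the labels' protocols. They deposited the spot files of the scanner software, which is Agilent Feature Extraction 11.5.1.1 in the submitters' processing notes. Its processed intensity is background-subtracted and detrended within each array, per the file headers. The deposited value table holds a ratio, which equals the processed signal divided by the array's 75th percentile to within 0.043%. Its column medians were 0.086 to 0.098. The table serves as an alternative, and it is neither log-transformed nor centred by gene. The scanner's own flags, deposited per the file headers, mark spots well above background, saturated spots (0 here) and outliers.

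Of the 43020 spots that were no controls, 72.5% to 79.1% per array were well above background. The number of arrays limits the precision. Here log2 of the processed signal minus the array's 75th percentile was used, with outlier spots left out (91 to 147 per array) and spots of a probe averaged. Probes well above background on at least 3 arrays were kept, and each gene took its brightest probe. The model of 3 groups was fitted with limma 3.58.1 in R 4.3.3, two-sided, with Benjamini-Hochberg adjustment over 23288 genes and a threshold of 0.05. It has 4 residual degrees of freedom. An exact permutation test with 3 against 3 cannot go below p = 0.10 and was not used. Second probes were tested in a fit of 29995 probes, with and without WT replicate 1, added after the data were seen. The steps were tested on simulated data, where 200 of 23288 genes were changed between KO and WT with the spread of the day 3 arrays. Of changes of 1, 2 and 4 log2, 0%, 37.3% and 59.1% were recovered, with 2 false calls. Most changes of 2 log2 or less were thus missed in the simulation, and a gene that did not pass may still differ. The simulated spread was drawn independently for each gene and array, whereas in the data WT replicate 1 stood apart in many genes at once. The simulated rates therefore need not hold for these data, and the fit without WT replicate 1 was not simulated. Promoters were read from a RefSeq table. Plotting used matplotlib 3.10.9 in Python 3.11.15.

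Samples were grouped by title. Alternatives were normexp, quantile normalization, no dim filter, the mean of all kept probes, the deposited table, each array left out, and a replicate block. The genes, lists and rules were chosen with earlier results of these data known. The rule named all 8 genes, up to 3 genes per pathway list with the smallest p for KO against WT, and the 3 nearest profiles of Cybb, Nos1, Nos2 and Nos3. A gene that this rule gives is not reported here.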

Additional observations from a re-analysis of the deposited data

How the results depend on the processing

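In each of the comparisons 0 of the 8 genes passed under any alternative run. With normexp, quantile normalization, no dim filter, the mean of kept probes and the deposited table, the sign of the 24 differences held except as follows. Under normexp, WT minus sham was 0.051 for Nos1 and 0.0098 for Nos2. Under quantile normalization, KO minus sham was -0.019 for Cyba and -0.065 for Ncf4. The count of all genes called against sham was 0 under normexp and 1 under quantile normalization in both comparisons, against 3, and leaving out each array gave 0 to 6 for WT and 0 to 8 for KO, the highest without WT replicate 1 each time.

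Leaving out WT replicate 1, also together with sham, turned KO minus WT to -0.15 for Ncf4, -0.023 for Rac2, 0.018 for Nos1, -0.40 for Nos2 and -0.16 for Nos3, and WT minus sham to 0.28 for Cyba, 0.19 for Ncf4 and 0.82 for Nos2. Over all arrays left out in turn, KO minus WT ran from -0.15 to 2.01 for Ncf4, -0.023 to 2.18 for Rac2, -0.67 to 0.036 for Nos1, -0.40 to 1.15 for Nos2 and -0.16 to 1.32 for Nos3. WT minus sham ran from -1.95 to 0.28 for Cyba, -1.97 to 0.19 for Ncf4, -0.55 to 0.10 for Nos1, -0.73 to 0.82 for Nos2 and -0.25 to 1.23 for Nos3, and KO minus sham for Ncf4 from -0.16 to 0.18. Apart from WT replicate 1, the causes were not tested.

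The replicate numbers did not pair the samples: deviations of same-numbered arrays correlated at -0.380, -0.556 and 0.353. With the replicate number as a block, 0 of the 8 genes and 0 of all genes were called by limma, with 148 genes at an unadjusted p under 0.05. A slide block could not be fitted, since KO and WT were on separate slides. Dim probes (Cybb, Nos1) have the largest scanner error.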
